A study of Mus musculus with 6 samples.

Results

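The levels of 10 genes that set the activity of mTORC1 were followed through cycloheximide treatment of mouse embryonic stem cells: Sesn1, Sesn2, Sesn3, Ddit4, Deptor, Tsc1, Tsc2, Flcn, Rragd and Mtor. They were chosen by symbol, and all 10 were found among the 17485 gene names in the files. The cells were E14, a pluripotent line of 129/Ola background kept in serum with leukaemia inhibitory factor, and were treated from 24 h after seeding. Cycloheximide, which blocks translation elongation, was given at 250 µg/mL (0.007% ethanol as vehicle) during 3 h or 6 h. Controls had the vehicle only, during 9 h, and no ethanol concentration was given for them. There were 2 libraries of polyadenylated RNA in each of the 3 groups, 6 in all. The length of exposure therefore differed together with the drug, and no vehicle group of 3 h or 6 h was analysed here. All libraries came from 1 cell line, and nothing in the labels says that the libraries of a group came from separate cultures, so p-values measure only the spread between these libraries.

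mTORC1 is a kinase complex on the lysosome surface that promotes protein synthesis and cell growth when amino acids and growth factors are present. Amino acids act through the Rag GTPases, which recruit the complex to the lysosome, and growth factors act through the TSC complex, which switches off the GTPase Rheb. Sestrins and the Ddit4 protein (also called REDD1) are stress-induced brakes on these routes, and their genes are known targets of ATF4, p53, FoxO factors or hypoxia-inducible factor. In pluripotent cells mTORC1 activity is linked to the rate of growth and to the choice between proliferation and a paused state.

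Library totals ranged from 9385447 to 27351079 counts, with the 6 h libraries deepest, so a floor of 3 counts equalled between 0.110 and 0.320 CPM. Counts from the mitochondrial chromosome made up 24.7% and 24.9% of the control libraries and 16.6% to 19.6% of the treated libraries. The stem cell markers were all present, including Pou5f1, Sox2 and Nanog. Their summed level in CPM was 5721 to 5891 for controls, 7084 to 7407 for 3 h libraries and 4921 to 4955 for 6 h libraries. The higher sum at 3 h came mostly from Sox2, with means of 2442 CPM in control and 3904 CPM at 3 h. Zfp42, Dppa5a and Nanog had lower means at 3 h than in control. Of these markers Sox2 and Klf4 were called higher at 3 h (log2 fold changes of 0.68 and 0.62, edgeR adjusted p = 0.00841 and 0.0215), and Zfp42 and Dppa5a lower at 6 h (-0.98 and -0.37, adjusted p = 0.000509 and 0.0243). Summed primitive endoderm markers (5 of 5 in the files) reached 5.41 to 7.58 CPM in control, 14.0 to 18.8 at 3 h and 12.2 to 14.2 at 6 h. Mesoderm, trophoblast and fibroblast markers each summed to at most 13.4 CPM in every library, with at most 3 counts of the trophoblast gene Cdx2 in a library. The trophoblast gene Tfap2c, with 56 to 368 counts a library, was called higher at 6 h (log2 fold change 1.19, edgeR adjusted p = 0.0119). The fibroblast genes Col1a2 and Lum had no counts in 5 of 6 libraries each, and the mesoderm gene Kdr had none in control. Other genes of these lists were detected in every library: Thy1 with 40 to 127 counts, Col1a1 with 12 to 50 and Eomes with 34 to 145. Elf5 (trophoblast) and Postn (fibroblast) were not among the gene names. Neural markers summed to 62.6 to 80.0 CPM in control, 95.3 to 119.6 at 3 h and 69.3 to 83.8 at 6 h, mostly from Sox1. Among them Nes was called higher at 6 h (log2 fold change 1.73, edgeR adjusted p = 0.00733). The part of these minor signals in the results below was not tested, and in bulk libraries fewer cells of a type and less RNA per cell cannot be told apart.

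Promoter sequences were matched by symbol for 9 of the 10 genes, with Deptor the gene without an entry. Each window runs from 250 bases before to 50 after the RefSeq start, from the GRCm38.p6 build. Both strands were searched for TGATGNAA (the core of the C/EBP-ATF response element, bound by ATF4), GTAAACA (the forkhead core) and ACGTG (a form of the hypoxia response core). They were also searched for CACGTG, the E-box of the CLEAR element bound by TFEB and TFE3, which contains ACGTG. Other forms of these cores were not searched. Among all 32851 promoter windows, TGATGNAA was in 3.97%, GTAAACA in 3.65%, ACGTG in 19.6% and CACGTG in 7.15%. Matches in the members' windows were limited to 1 ACGTG in Ddit4 and 1 GTAAACA in 1 Sesn1 window. A further Sesn1 window, chr10:41887189-41887488, held none of these letters. The following windows are shown, 5′ to 3′, because they hold those matches, in capitals, or belong to the member that passed the test at 6 h, Flcn, in which none of these letters occurred.
Ddit4 (chr10:59951721-59952020, minus strand): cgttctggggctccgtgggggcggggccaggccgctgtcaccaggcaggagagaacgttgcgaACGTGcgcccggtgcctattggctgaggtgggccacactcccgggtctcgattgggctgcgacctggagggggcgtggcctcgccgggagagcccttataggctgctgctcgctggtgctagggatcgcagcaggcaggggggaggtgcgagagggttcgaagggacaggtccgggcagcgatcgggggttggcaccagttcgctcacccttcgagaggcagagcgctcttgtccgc
Sesn1 (chr10:41810324-41810623, plus strand): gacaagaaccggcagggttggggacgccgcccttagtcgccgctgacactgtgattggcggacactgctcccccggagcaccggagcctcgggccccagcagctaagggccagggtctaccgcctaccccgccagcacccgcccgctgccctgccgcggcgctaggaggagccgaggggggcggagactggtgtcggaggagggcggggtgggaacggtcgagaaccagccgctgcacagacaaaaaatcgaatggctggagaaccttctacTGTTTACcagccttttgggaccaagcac
Flcn (chr11:59809990-59810289, minus strand): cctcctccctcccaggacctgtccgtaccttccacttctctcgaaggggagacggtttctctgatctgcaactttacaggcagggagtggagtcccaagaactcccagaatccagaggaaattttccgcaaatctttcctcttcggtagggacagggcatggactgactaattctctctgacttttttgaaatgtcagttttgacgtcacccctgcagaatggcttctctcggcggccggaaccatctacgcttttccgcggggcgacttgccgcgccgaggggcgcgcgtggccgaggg
The Ddit4 match lay 187 to 183 bases before the start and the Sesn1 match 22 to 28 bases after it. A match describes letters only, and a window without one does not bear on the factor.

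The question was whether the transcripts of these brakes and switches changed once translation was blocked. At 3 h none of the 10 was called changed, against 4.9% of the 12755 genes tested (3.6% called higher and 1.3% lower). At 6 h Flcn alone was called, and lower, against 29% of all tested genes called in either direction, 14.8% higher and 14.3% lower. Between 6 h and 3 h none was called, against 1.64% of all tested genes (0.455% higher and 1.18% lower). With 10 genes, these counts cannot be told apart from those shares. The members were also measured less precisely. Their median standard error on the log2 scale was 0.335 at 3 h and 0.331 at 6 h, beside 0.230 and 0.228 for all tested genes. A call is an adjusted p under 0.05 in the quasi-likelihood test of edgeR, with Benjamini-Hochberg adjustment over all tested genes. At an unadjusted p under 0.05 the members counted 2 at 3 h (Sesn1 and Rragd), 4 at 6 h (Sesn1, Tsc1, Flcn and Rragd) and 0 between the times. limma-voom and DESeq2 also called 0 members at 3 h and 0 between the times, each with 1 at an unadjusted p under 0.05 at 3 h (Rragd) and 0 between the times. At 6 h DESeq2 called Flcn and limma-voom called Flcn and Sesn1.

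The median log2 fold change of the 10 members was -0.19 at 3 h and -0.08 at 6 h, beside 0.02 and 0.04 over all tested genes. Members ranged from -1.10 (Rragd) to 0.74 (Ddit4) at 3 h and from -0.96 (Sesn1) to 0.72 (Sesn3) at 6 h. Treated and control values did not overlap for 6 members at 3 h, against 53.2% of all tested genes, and for 5 members at 6 h, against 66.8%. Between the treatment times only Sesn2 had groups that did not overlap, against 54.1% of tested genes. The 3 h and 6 h values share their 2 control libraries. Levels below are TMM-scaled CPM, counts relative to library sizes scaled by the trimmed mean of M values.

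**Figure D1:**
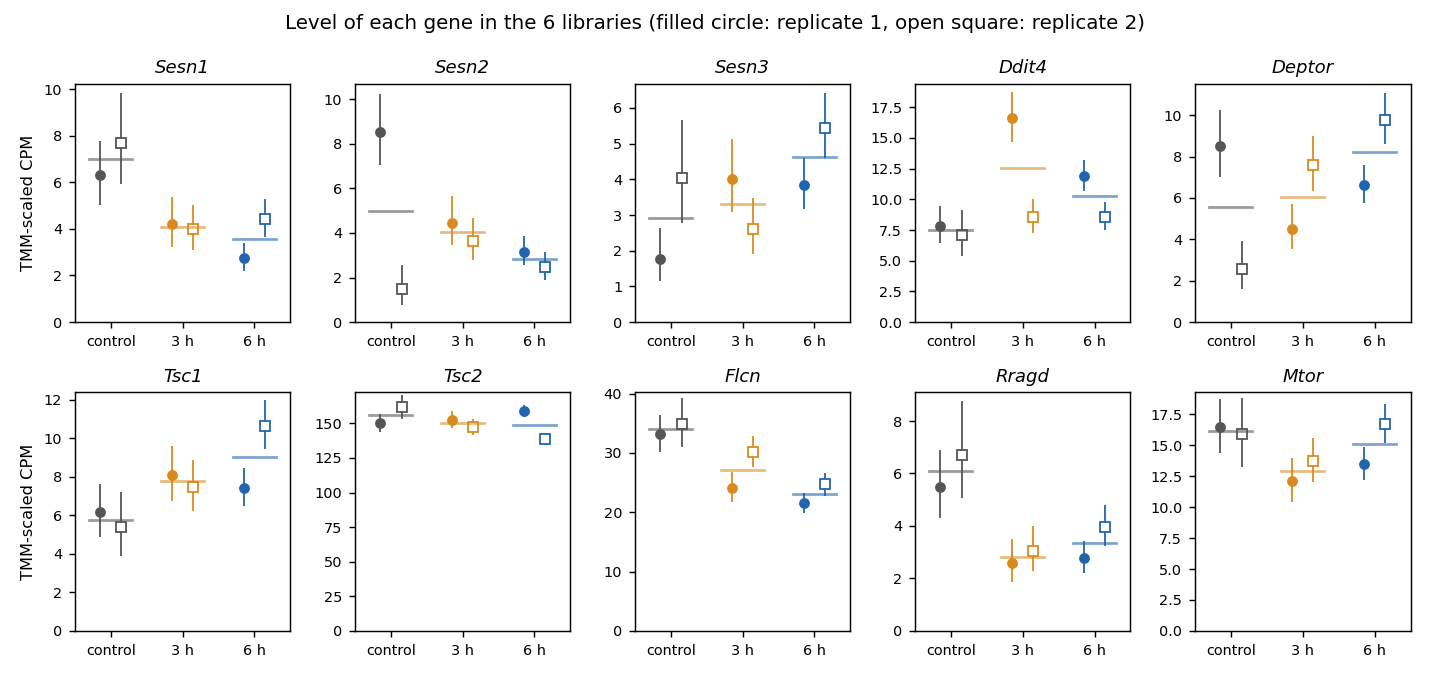
Level of each of the 10 genes (vertical axes, TMM-scaled CPM, each from 0) in control, 3 h and 6 h libraries. Points are libraries, thin bars are exact 95% Poisson intervals that cover counting error only, and horizontal lines are group means. Flcn and Rragd lay lower in every treated library than in both controls, while the Sesn2 and Deptor controls stood far apart.

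Flcn encodes folliculin, which works with Fnip1 or Fnip2 as a GTPase-activating protein for RagC and RagD and so links amino acids to the lysosomal arm of mTORC1. Its gene (ENSMUSG00000032633.12) spans chromosome 11 from 59791408 to 59810016 on the minus strand of GRCm38 in GENCODE M21. Flcn stood at 33.2 and 34.9 CPM in control, 24.2 and 30.1 CPM at 3 h, and 21.5 and 24.7 CPM at 6 h, from 286 to 651 counts a library. Both groups of treated libraries lay below both controls, and the 3 h and 6 h libraries overlapped. Flcn means were 34.1 ± 1.24 CPM in control and 23.1 ± 2.26 CPM at 6 h (SD, n = 2). Flcn fell by 0.56 ± 0.17 (SE) on the log2 scale, to 0.678 times the control level (edgeR adjusted p = 0.0348). At 3 h the log2 fold change was -0.33 ± 0.17 (SE) and did not pass (edgeR adjusted p = 0.265), and the direct difference between 6 h and 3 h was -0.23, with a 95% interval from -0.61 to 0.14. The call depended on every compared library: leaving out 1 control or 1 of the 6 h libraries gave log2 fold changes from -0.66 to -0.46 and adjusted p from 0.0535 to 0.196. With library size alone as the scale, the median over all tested genes at 6 h moved from 0.04 to 0.40, and the Flcn value of -0.20 did not pass (edgeR adjusted p = 0.388), still below that median.

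The genes whose pattern over the 6 libraries was most like that of Flcn were Rnf44, Gngt2 and Pdlim5. Likeness was the Euclidean distance between log2 levels centred on each gene's mean, over 8879 other tested genes with a mean of at least 5 CPM, and the distances were 0.071, 0.096 and 0.112 on the log2 scale. Rnf44 had 202 and 213 CPM in control, 143 and 178 CPM at 3 h, and 133 and 154 CPM at 6 h.

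Rragd encodes RagD, a small GTPase that pairs with RagA or RagB to bring mTORC1 to the lysosome, and Rragd and Flcn are known targets of TFEB and TFE3. Rragd (chromosome 4, 32983037 to 33022180, plus strand) was at 5.48 and 6.72 CPM in control, 2.58 and 3.06 CPM at 3 h, and 2.77 and 3.95 CPM at 6 h. All 4 treated libraries were below both controls, and the 2 treatment times overlapped. The log2 fold change was -1.10 ± 0.35 (SE) at 3 h and -0.85 ± 0.33 (SE) at 6 h, with 95% intervals from -1.89 to -0.31 and from -1.62 to -0.09. Neither passed after adjustment (edgeR adjusted p = 0.0989 and 0.0875), from 40 to 103 counts a library. In this gene the difference between 6 h and 3 h was 0.25, with an interval from -0.52 to 1.02.

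The sestrins bind the GATOR2 complex and restrain the Rag GTPases, with Sesn2 known as a leucine sensor. Sesn1 (chromosome 10, 41809935 to 41908424, plus strand) measured 6.30 and 7.70 CPM in control, 4.199 and 3.987 CPM at 3 h, and 2.74 and 4.41 CPM at 6 h. Every treated library was below both controls, and the 6 h values spanned those at 3 h. Its log2 fold changes were -0.77 ± 0.33 (SE) at 3 h and -0.96 ± 0.33 (SE) at 6 h, at adjusted p of 0.200 and 0.0568 in edgeR. At 6 h the call was made by limma-voom, with an adjusted p of 0.0433, and in edgeR without a filter on low counts, with an adjusted p of 0.0300. Across all alternatives in which all 6 libraries were kept, the log2 fold change lay below 0, and with library size alone it was -0.61.

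Sesn2 (chromosome 4, 132492032 to 132510501, minus strand) had controls that disagreed, at 8.52 CPM from 115 counts and 1.47 CPM from 12 counts. The exact 95% Poisson intervals, 7.04 to 10.2 CPM and 0.758 to 2.56 CPM, did not meet, so the gap was beyond counting error. Only 70 of the 12755 tested genes had a larger log2 gap between the control libraries, with 0.5 CPM added to each level. Sesn2 was at 4.46 and 3.64 CPM at 3 h and at 3.17 and 2.45 CPM at 6 h, all between the controls. The log2 fold change was -0.36 ± 0.62 (SE) at 3 h and -0.88 ± 0.62 (SE) at 6 h (edgeR adjusted p = 0.766 and 0.318). Its direction turned with the control library used: without control replicate 1 the Sesn2 values were 1.46 at 3 h and 0.94 at 6 h, and without control replicate 2 they were -1.08 and -1.59, the last with an adjusted p of 0.0139. The 3 h libraries both lay above the 6 h libraries, but the difference of -0.52 had a 95% interval from -1.92 to 0.88.

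Sesn3 (chromosome 9, 14275067 to 14333101, plus strand) had few counts in control, 24 and 33. Its level was 1.78 and 4.03 CPM in control, 4.005 and 2.60 CPM at 3 h, and 3.83 and 5.44 CPM at 6 h. All 3 groups overlapped. The log2 fold changes of 0.23 ± 0.48 (SE) at 3 h and 0.72 ± 0.46 (SE) at 6 h did not pass (edgeR adjusted p = 0.810 and 0.276), and the 95% interval at 6 h ran from -0.34 to 1.77. The 6 h value of Sesn3 was 0.20 without control replicate 1 and 1.38 without control replicate 2 (adjusted p = 0.772 and 0.0717).

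Ddit4 encodes a short-lived protein that activates the TSC complex under hypoxia, energy stress and glucocorticoids. The gene (chromosome 10, 59949669 to 59951834, minus strand) carried the ACGTG match printed above. Ddit4 was at 7.85 and 7.09 CPM in control, 16.6 and 8.55 CPM at 3 h, and 11.9 and 8.59 CPM at 6 h. Every treated library was above both controls, but the 3 h libraries differed 1.94-fold from each other. The log2 fold change was 0.74 ± 0.34 (SE) at 3 h and 0.45 ± 0.33 (SE) at 6 h (edgeR adjusted p = 0.216 and 0.341), with 95% intervals from -0.03 to 1.51 and from -0.31 to 1.21. The paralog Ddit4l gave 8.67 and 7.58 CPM in control, 8.85 and 9.42 CPM at 3 h, and 9.70 and 10.4 CPM at 6 h. Its log2 fold changes of 0.16 and 0.30 did not pass (edgeR adjusted p = 0.679 and 0.318), although the 6 h value was called with library size alone, at 0.66 and an adjusted p of 0.0440.

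Tsc1 and Tsc2 encode hamartin and tuberin, which together form the GTPase-activating complex for Rheb. Tsc1 (chromosome 2, 28641228 to 28691167, plus strand) stood at 6.15 and 5.38 CPM in control, 8.07 and 7.45 CPM at 3 h, and 7.43 and 10.7 CPM at 6 h. Treated libraries were all above both controls, with a log2 fold change of 0.42 ± 0.27 (SE) at 3 h and 0.64 ± 0.27 (SE) at 6 h that did not pass (edgeR adjusted p = 0.369 and 0.103). With library size alone Tsc1 was called higher at 6 h, at 1.00 and an adjusted p of 0.0226, while the median of all tested genes was 0.40 on that scale. Tsc2 (chromosome 17, 24595816 to 24632630, minus strand) had the most counts of the members, 1323 to 4818 a library. It was at 150 and 162 CPM in control, 153 and 148 CPM at 3 h, and 159 and 139 CPM at 6 h, and the groups overlapped. Its log2 fold changes of -0.06 and -0.07 had the narrowest 95% intervals among the members, from -0.32 to 0.21 at 3 h and from -0.33 to 0.20 at 6 h. Tsc2 and the antisense gene Pkd1 share 693 exonic bases, 7.20% of the Tsc2 exons, and Pkd1 held at most 16 counts in a library.

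Mtor encodes the kinase itself, and Deptor an inhibitory subunit that binds it. Mtor (chromosome 4, 148448611 to 148557683, plus strand) was at 16.5 and 15.9 CPM in control, 12.1 and 13.8 CPM at 3 h, and 13.5 and 16.7 CPM at 6 h. Both 3 h libraries lay below control and the 6 h libraries overlapped it, with log2 fold changes of -0.32 ± 0.19 (SE) and -0.10 ± 0.19 (SE) that did not pass (edgeR adjusted p = 0.337 and 0.727). Deptor (chromosome 15, 55112317 to 55259271, plus strand) had, like Sesn2, controls that stood apart, at 8.52 CPM from 115 counts and 2.57 CPM from 21 counts. Deptor was at 4.52 and 7.57 CPM at 3 h and at 6.63 and 9.77 CPM at 6 h, so that the 3 groups overlapped. Its log2 fold changes of 0.08 ± 0.50 (SE) and 0.51 ± 0.49 (SE) did not pass (edgeR adjusted p = 0.946 and 0.466). Without control replicate 1 the Deptor value at 6 h was 1.67 with an adjusted p of 0.0322, and without control replicate 2 it was -0.053. Of the Deptor exons 3.41% are shared with the antisense transcript Gm9920, which had at most 6 counts in a library.

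**Figure D2:**
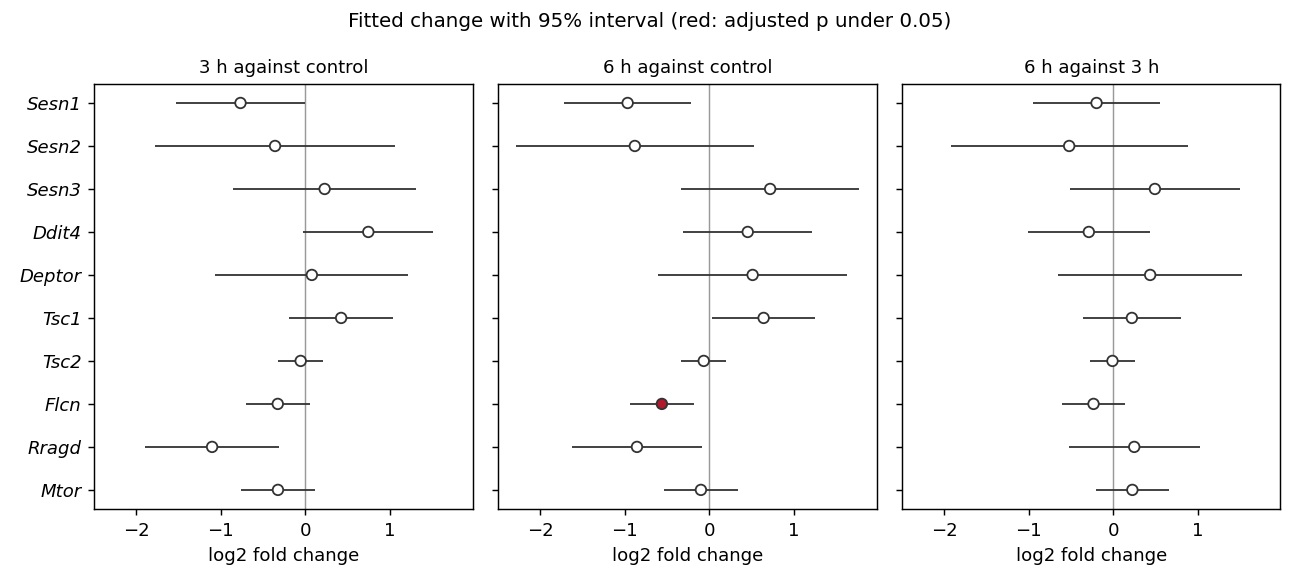
Log2 fold change of each gene (horizontal axes) with its 95% interval in the 3 comparisons, fitted on all 6 libraries. Flcn at 6 h against control is the one filled point, with an adjusted p of 0.0348, and the intervals of Sesn2 and Deptor are the widest in the comparisons with control.

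The direction of each member at 6 h was also read with single libraries left out. Sesn1, Sesn3, Ddit4, Tsc1, Flcn and Rragd kept their direction at 6 h against control when any 1 of the 6 libraries was left out. All of these but Sesn3 had 6 h and control groups that did not overlap, like 66.8% of all tested genes. Their sign could therefore hardly change. The share of all tested genes that kept direction was not counted. Sesn2, Deptor, Tsc2 and Mtor changed sign in at least 1 fit with a library left out. For Tsc2 and Mtor the value with all 6 libraries was small (-0.07 and -0.10). The 6 h value ranged from -1.59 to 0.94 for Sesn2 and from -0.053 to 1.67 for Deptor, but only from -0.66 to -0.46 for Flcn.

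**Figure D3:**
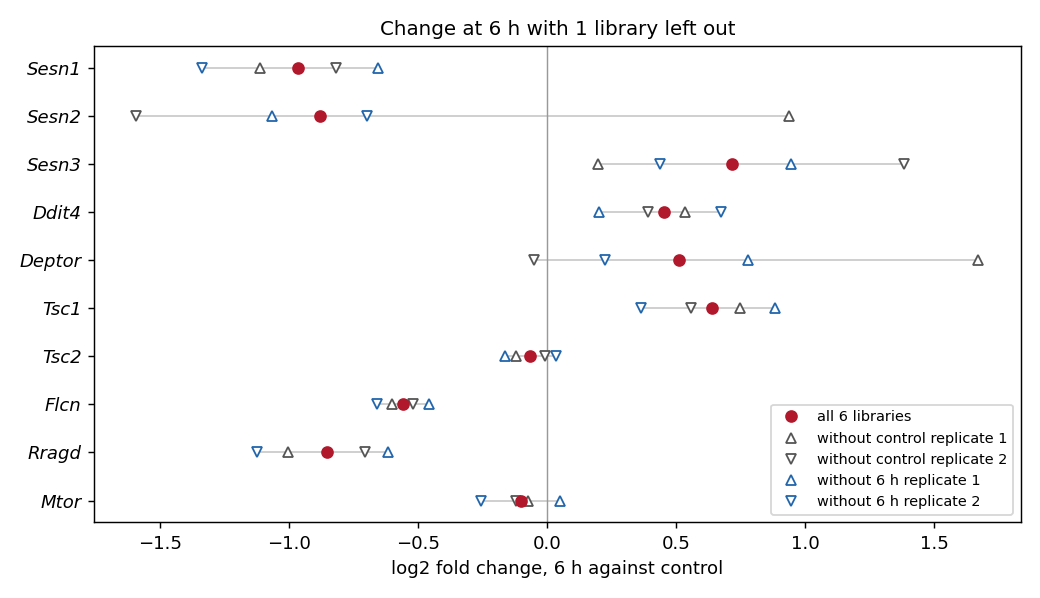
Log2 fold change at 6 h against control (horizontal axis) for each gene with all 6 libraries (filled circles) and with 1 control or 6 h library left out (open symbols). Sesn2 spans -1.59 to 0.94 depending on the control library used, whereas Flcn stays between -0.66 and -0.46.

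The rest of the pathway was followed through 83 genes in 9 groups by role, of which 80 were tested. Of these, 3 were called at 3 h, all higher, or 3.75% against 4.9% of all tested genes. At 6 h 12 were called higher and 10 lower, together 27.5% against 29%, and the median log2 fold change was -0.01 beside 0.04 for all tested genes. Between the times 1 of 80 was called, or 1.25% against 1.64%. With library size alone 27 of 30 calls at 6 h were higher, so the split of directions is relative to the TMM scale.

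Among the partners nearest to the members, none of the 5 genes Fnip1, Fnip2, Tbc1d7, Rheb and Rhebl1 was called at any time. The shares of all tested genes were 4.9% at 3 h, 29% at 6 h and 1.64% between the times. With 5 genes, no calls cannot be told apart from those shares. The 3 remaining mTORC1 subunits gave 1 call at 6 h. Mlst8, which encodes the subunit shared with mTORC2, rose from 2.20 ± 0.868 to 5.91 ± 0.930 CPM (SD, n = 2; log2 fold change 1.38, edgeR adjusted p = 0.0201). Of the 4 genes for mTORC2 subunits, Prr5l rose by 1.38 and Prr5 fell by 0.83 on the log2 scale at 6 h (edgeR adjusted p = 0.0121 and 0.00810). Of the 9 Rag and Ragulator genes, Rraga rose at 6 h from 93.0 ± 14.3 to 138.0 ± 14.7 CPM (SD, n = 2; log2 fold change 0.57, edgeR adjusted p = 0.0215). At 6 h the called shares were 33.3% (mTORC1), 50% (mTORC2) and 11.1% (Rag and Ragulator), against 29% of all tested genes. Resting on 3, 4 and 9 genes, they cannot be told apart from that share or from each other. The calls of Mlst8 and Rraga were lost without control replicate 2 (adjusted p = 0.0571 and 0.0739) or either 6 h library (adjusted p from 0.0524 to 0.127). Those of Prr5 and Prr5l were lost without 6 h replicate 2 (adjusted p = 0.0724 and 0.0739), and that of Prr5 with library size alone. Without control replicate 1 the Prr5l value was 2.06.

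Of 15 genes of the nutrient-sensing complexes upstream of the Rag proteins, 2 were called higher and 2 lower at 6 h, or 26.7% against 29% of all tested genes. Itfg2, a subunit of the KICSTOR scaffold, was at 8.37 and 6.72 CPM in control, 18.5 and 13.4 CPM at 3 h, and 20.3 and 24.3 CPM at 6 h. Its log2 level rose by 1.07 at 3 h and by 1.55 at 6 h (edgeR adjusted p = 0.0418 and 0.00288). The 3 h call of Itfg2 was lost with limma-voom and with only the compared groups, with adjusted p of 0.0829 and 0.0921, and without any 1 library other than control replicate 1, with adjusted p from 0.0826 to 0.192. Sec13 of GATOR2, which is also a coat protein gene of vesicle export, fell by 0.54, and Castor2, from a family of arginine sensors, fell by 2.45 at 6 h (edgeR adjusted p = 0.0252 and 0.0408). Castor2 was at 2.67 and 5.01 CPM in control and at 1.09 and 0.268 CPM at 6 h. The Sec13 and Castor2 calls were lost with library size alone and without control replicate 2 (adjusted p = 0.105 and 0.132) or 6 h replicate 2 (adjusted p = 0.153 and 0.191), and that of Sec13 also without 6 h replicate 1 (adjusted p = 0.0759). The Castor2 value ran from -3.78 to -1.79 when 1 library was left out.

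Upstream kinases gave 3 higher and 2 lower calls of 15 at 6 h, or 33.3% against 29% of all tested genes. Akt1, the kinase that inactivates the TSC complex in response to growth factors, stood at 59.4 and 75.8 CPM in control, 39.1 and 45.2 CPM at 3 h, and 20.5 and 21.2 CPM at 6 h. Its 3 groups were in separate ranges, and Akt1 fell by 1.69 on the log2 scale at 6 h (edgeR adjusted p = 0.000460). It was also the 1 pathway gene called between the times, with a difference of -1.02 (edgeR adjusted p = 0.0238). Prkab1, a regulatory subunit of the energy sensor AMPK, rose by 0.70 at 6 h (edgeR adjusted p = 0.0141). Irs2, an adaptor of insulin receptors, was called higher at 6 h, at 0.445 and 0.122 CPM in control and 1.95 and 2.07 CPM at 6 h (edgeR adjusted p = 0.0213), with 6 and 1 counts in control. The Prkab1 call was lost without control replicate 1 and the Irs2 call without control replicate 2 (adjusted p = 0.0524 and 0.0558), and both without either 6 h library (adjusted p from 0.0648 to 0.103), whereas the 6 h call of Akt1 against control held without any 1 library. The Akt1 call between the times was lost without any 1 of the 3 h or 6 h libraries, at -1.11 to -0.91 with adjusted p from 0.117 to 0.228.

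Of 13 effectors downstream of mTORC1, Grb10 and Eif4ebp1 were called at 6 h, or 15.4% against 29% of all tested genes. Grb10, a feedback inhibitor of insulin signalling, fell from 596 ± 91.8 to 315 ± 19.0 CPM (SD, n = 2; log2 fold change -0.92, edgeR adjusted p = 0.00187). Eif4ebp1, the repressor of cap-dependent translation that mTORC1 phosphorylates, fell by 0.52 on the log2 scale (edgeR adjusted p = 0.00683). With library size alone the Eif4ebp1 value was -0.16 and its call was lost, as it was without 6 h replicate 2 (adjusted p = 0.0620). Of the 8 tested targets of MiT/TFE factors among 10 listed, 2 were called higher and 2 lower at 6 h, against 14.8% and 14.3% of all tested genes. The autophagy receptor gene Sqstm1 fell by 1.01 and the lysosomal membrane gene Lamp1 by 0.41, whereas the lysosomal hydrolase gene Hexa rose by 0.90 (edgeR adjusted p = 0.00222, 0.0322 and 0.00862). The Lamp1 call was lost with library size alone, at -0.06, with only the compared groups (adjusted p = 0.0578) and without any 1 library other than control replicate 1 (adjusted p from 0.0539 to 0.204). The Hexa call was lost without 6 h replicate 1 (adjusted p = 0.0672).

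Transcription factors known to act on sestrin or Ddit4 genes included the 2 remaining pathway calls at 3 h, or 25% of 8 tested against 4.9% of all tested genes. At 6 h the called share was 37.5% against 29%. These shares rest on 8 genes of a list chosen with earlier results of these data known. They are descriptive, and whether they differ from those of all tested genes was not tested. Atf4 was at 302 and 295 CPM in control, 477 and 452 CPM at 3 h, and 466 and 464 CPM at 6 h. It rose by 0.64 at both times (edgeR adjusted p = 0.0107 and 0.00288), although leaving out either 3 h library ended the 3 h call, with adjusted p of 0.0757 and 0.0949. Ddit3, which encodes the stress factor CHOP, averaged 1.94 ± 0.0201 CPM in control and 5.63 ± 1.11 CPM at 3 h (SD, n = 2). Its log2 level rose by 1.54 at 3 h and by 1.38 at 6 h (edgeR adjusted p = 0.0379 and 0.0158). The 3 h call of Ddit3 was lost with limma-voom and with only the compared groups, with adjusted p of 0.0816 and 0.0956, and without any 1 library, with adjusted p from 0.0621 to 0.203. The 6 h calls of Ddit3 and Foxo4 were lost without either 6 h library (adjusted p from 0.0694 to 0.0883), and that of Foxo4 with library size alone. Foxo4 fell by 0.80 at 6 h (edgeR adjusted p = 0.0106), and Foxo3 was too low to be tested. Trp53, which encodes p53, had log2 fold changes of -0.10 and -0.19 that did not pass (edgeR adjusted p = 0.569 and 0.193). Txnip, whose protein is known to bind REDD1 and to limit glucose uptake, averaged 108 ± 14.9 CPM in control and 1248 ± 36.8 CPM at 6 h (SD, n = 2). Txnip rose by 3.39 at 3 h and by 3.53 at 6 h on the log2 scale (edgeR adjusted p = 1.68e-05 and 6.26e-06). The difference between the times was 0.14 (edgeR adjusted p = 0.563).

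**Figure D4:**
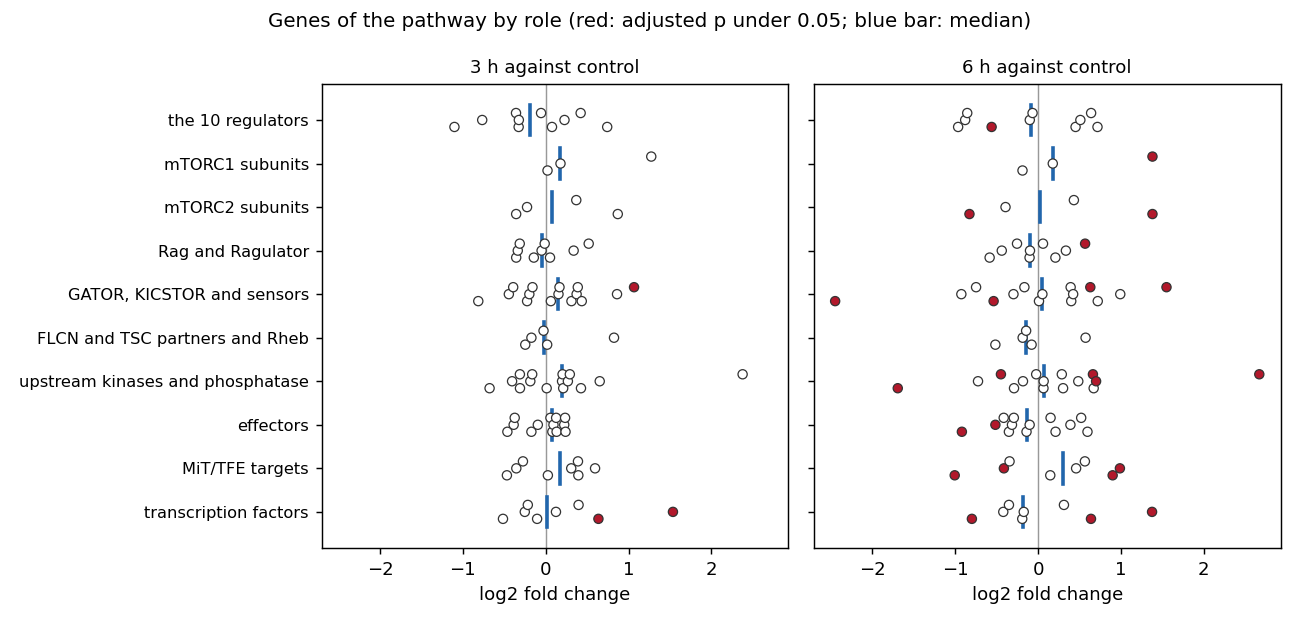
Log2 fold change against control (horizontal axes) of the 10 regulators and of 80 tested pathway genes grouped by role, at 3 h and 6 h. Filled points have an adjusted p under 0.05 and blue bars are group medians: calls among pathway genes numbered 3 at 3 h and 22 at 6 h, with medians of every group between -0.19 and 0.30.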

How the data were processed

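The authors deposited 1 table of raw counts per gene for each library, on the mm10 build per the submitters' processing notes. The aligner, counter, strand setting and use of molecular identifiers are not given in the sources used here. Counts of 12755 of 17485 genes were tested, those reaching 0.621 CPM (10 counts in the median library) in at least 2 libraries and 15 counts in total. All 6 libraries entered 1 edgeR 4.0.16 quasi-likelihood fit with TMM scaling, with Benjamini-Hochberg adjustment over all tested genes. Alternatives were limma 3.58.1 (voom), DESeq2 1.42.0, other scalings and filters, the compared groups alone and each library left out. Standard errors are the absolute log2 fold change over the square root of F. On simulated counts, 51.0%, 45.3% and 50.0% of 2-fold changes were recovered at 3 h, at 6 h and between the times. For 4-fold changes these shares were 82.4%, 82.2% and 78.8%. Each run changed 200 genes in 1 comparison, while 625, 3703 and 209 genes were called in the data, so recovery in the data can differ. Recovery was not counted for the members alone. The shares of false calls were 9.27%, 6.88% and 7.64%, all above the nominal level set by an adjusted p under 0.05. Members and lists were chosen with earlier results of these data known, and the CACGTG motif was added after levels were seen. Named pathway genes are those called at 3 h, up to 3 per role with the smallest p among those called at 6 h, and Atf4, Trp53, Txnip and Ddit4l. Poisson intervals and the floor cover counting error only.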

Additional observations from a re-analysis of the deposited data

How the results depend on the processing

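Members called at 6 h against control numbered 2 with limma-voom and 2 with no filter, adding Sesn1 to Flcn, against 1 otherwise, and 0 to 1 when 1 library was left out. The member called was Flcn without either 3 h library, Deptor without control replicate 1 and Sesn2 without control replicate 2, and none was called without either 6 h library. Library size alone also gave 1, Tsc1 in place of Flcn. It turned Tsc2 to 0.17 at 3 h, 0.29 at 6 h and 0.12 between the times, Mtor to 0.26 at 6 h, Trp53 to 0.12 and 0.17, and Prr5 to 0.0016 at 3 h. Leaving out 1 library gave -1.08 to 1.46 at 3 h and -1.59 to 0.94 at 6 h for Sesn2, and -0.49 to 1.24 and -0.053 to 1.67 for Deptor. It gave -0.29 to 0.89 for Sesn3 at 3 h, and at 6 h -0.26 to 0.050 for Mtor and -0.16 to 0.033 for Tsc2. Between the times it gave -0.11 to 0.088 for Tsc2, -0.69 to 0.27 for Ddit4, -0.57 to 0.11 for Sesn1, -0.060 to 0.46 for Tsc1 and -0.024 to 0.48 for Rragd.

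Over all tested genes, calls at 3 h numbered 625, with 1373 by library size alone, 1447 by DESeq2, 1816 with no filter, 218 with only the groups compared and 96 to 1018 with 1 library left out. At 6 h they numbered 3703, with 1274 to 3620 when 1 library was left out. Between the times they numbered 209, with 508 by limma-voom, 688 by DESeq2, 1063 with no filter, 563 with only the groups compared and 12 to 594 with 1 library left out. The share of higher calls moved with library size alone from 73.4% to 95.8% at 3 h, from 50.8% to 88.2% at 6 h and from 27.8% to 56.5% between the times. Median log2 fold changes of all tested genes were then 0.25, 0.40 and 0.14. Pathway calls at 3 h were 3, with 7 by library size alone, 1 by limma-voom, 11 by DESeq2, 15 with no filter, 1 with only the groups compared and 0 to 12 with 1 library left out. At 6 h they were 22, with 7 to 27 when 1 library was left out. Between the times 1 pathway gene was called, with 4 by DESeq2, 4 with no filter, 3 with only the groups compared and 0 to 4 with 1 library left out. The cause of these shifts was not tested.

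Log2 differences between replicates 1 and 2 correlated at 0.118 (control and 3 h), -0.0256 (control and 6 h) and 0.0192 (3 h and 6 h). The labels do not say whether the numbers pair the libraries, and low correlations cannot exclude it. With the replicate block, Flcn was the member called at 6 h (-0.57, adjusted p = 0.0284), calls over all genes were 426, 3550 and 126, and pathway calls 1, 19 and 1. The block ended the 3 h calls of Itfg2 and Ddit3 (adjusted p = 0.0609 and 0.0593) and the 6 h call of Castor2 (-2.36, adjusted p = 0.0741).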

Other observations

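Gaps between replicates were counted with 0.5 CPM added to each level. A gap of over 2-fold was then found for 1148 of the tested genes (9.0%) between the control replicates, 518 (4.06%) between the 3 h replicates and 259 (2.03%) between the 6 h replicates. A chi-square of the replicate counts per degree of freedom, over genes with at least 20 counts, was 27.5 for control, 18.7 for 3 h and 27.7 for 6 h. At a given spread this chi-square grows with depth, so it cannot rank groups of unlike depth. Control totals were 15423587 and 9385447 counts, beside 27351079 and 23121225 at 6 h. The part of depth in the gaps and in the chi-square was not tested. Of the members, Sesn2 and Deptor had the widest control gaps, 5.81-fold and 3.32-fold without that addition.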
